A study of Mus musculus with 36 samples.

Results

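The periportal and urea cycle genes were 10 genes, of which 9 are described here, picked by symbol from the 24421 genes counted in each liver, with earlier results of these data known. Those that mark or work in periportal hepatocytes were Cyp2f2, a cytochrome P450 enzyme, Hal, which takes ammonia off histidine, Gls2, the liver glutaminase, Sds, which breaks down serine, and Cdh1, the adhesion protein E-cadherin. Cps1, Otc, Ass1 and Asl encode enzymes of the urea cycle. All mice were C57BL/6J males, 7 weeks old when bought, that had been fed for 12 weeks on a CDAHFD, a choline-deficient and amino acid-defined high-fat diet that produces steatohepatitis with fibrosis. In the first experiment, a high-fat diet (HFD) followed over 2 weeks, in which the mice received once a week either Fc at 4.3 mg/kg (n = 10) or Fc(mML1)B3 at 5 mg/kg (n = 10). In the standard diet experiment the mice ate a standard diet for 10 days and received Fc at 4.3 mg/kg (n = 9) or Fc(mML1)B3 at 5 mg/kg (n = 7) on days 1, 4 and 7. Fc is the crystallizable fragment of an antibody, and Fc(mML1)B3 is the same fragment carrying a grafted cyclic peptide that activates Met, the receptor of hepatocyte growth factor. No group lacked the CDAHFD, so no value below is one of a healthy liver.

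Hepatocytes along the portal-to-central axis of the liver lobule divide their work. Those next to the portal vein, which meet oxygen and amino acids first, break down amino acids, make glucose and turn the released ammonia into urea. Those around the central vein take up the ammonia that is left and make glutamine. In the urea cycle, Cps1 and Otc work in mitochondria, where carbamoyl phosphate and then citrulline are made, and Ass1 and Asl work in the cytosol.

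Each liver gave 1 library, with 14949035 to 28466853 counted reads and medians of 19023641, 20147652, 23088985 and 25968982 in the groups Fc HFD, Fc(mML1)B3 HFD, Fc standard diet and Fc(mML1)B3 standard diet. Levels are given as CPM, the count of a gene relative to the TMM-scaled library total, as mean ± SD over mice. A gene was called at an adjusted p below 0.05 in edgeR's quasi-likelihood F-test, with p-values adjusted over all genes tested and no limit on the fold change. Hepatocyte markers were abundant in every liver, and the summed level of the 3 kidney markers was at most 0.144 CPM. The 3 small intestine markers, of a tissue that also makes Cps1 and Otc, summed to between 55.7 and 165 CPM, most of it Fabp2. A pair of HFD livers stood apart: of the 8 described members with enough reads to test, Fc(mML1)B3 mouse 5 was the lowest of its group in 7, and Fc mouse 4 in 5. Both were also low in the 4 hepatocyte markers found in the table (69811 and 75445 CPM, the lowest of their groups), the highest of their groups in the 6 cholangiocyte markers (843 and 857 CPM) and the 5 stellate cell markers (1208 and 1125 CPM), and high in the 7 macrophage markers (1983 and 1955 CPM, the highest and the second highest). The part of this in the results was not tested. All 10 clock genes examined were called between the 2 HFD groups, 5 higher and 5 lower with Fc(mML1)B3 (Dbp, a clock output factor, fell from 100.2 ± 20.5 to 9.88 ± 7.88 CPM), and 7 of 10 were called under the standard diet. Livers that differ in clock phase and livers that differ in treatment cannot be told apart here, and the part of this in the results below was not tested. In whole liver, a change in the number of periportal hepatocytes and a change in RNA per hepatocyte cannot be told apart either.

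Ass1, which joins citrulline to aspartate, could not be measured. It had 0 to 7 reads in any library. In the annotation used for counting, the gene Gm5424 lies on the same strand over 1552 of the 1631 exonic bases of Ass1 (chr2:31470270-31520670, mm10), and reads that fall on 2 genes were not counted. Gm5424 had 0 reads throughout. GENCODE places Gm5424 on another chromosome (chr10:62071123-62072362, GRCm38), as a processed pseudogene whose sequence matches the Ass1 coding sequence at 1230 of 1236 aligned bases (99.5%). The stretch of coding bases 330 to 429, which holds 2 of the differences and shows how alike the copies are, is printed here 5′ to 3′ with the differing bases in capitals.
Ass1: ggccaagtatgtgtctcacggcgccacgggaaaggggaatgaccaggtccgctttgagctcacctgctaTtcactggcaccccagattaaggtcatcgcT
Gm5424: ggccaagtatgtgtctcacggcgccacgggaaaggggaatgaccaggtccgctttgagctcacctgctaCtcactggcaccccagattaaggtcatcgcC
The count of Ass1 thus gives no level of the gene, and 8 of the 9 members described could be tested. Gls2 and Sds share 95 and 13 exonic bases with Spryd4 and Plbd2 on the opposite strand, 3.82% and 1.12% of their exonic length, and Cyp2f2, Hal, Cdh1, Cps1, Otc and Asl share none.

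Summed, the measured members held a larger share of the reads in every standard diet mouse than in any HFD mouse. Their summed share of a library ranged from 0.335% to 0.652% (median 0.509%) in Fc HFD mice, from 0.376% to 0.664% (median 0.559%) in Fc(mML1)B3 HFD mice, from 0.668% to 0.815% (median 0.745%) in Fc standard diet mice and from 0.771% to 0.906% (median 0.825%) in Fc(mML1)B3 standard diet mice. Cps1 alone held from 0.178% to 0.342% in Fc HFD mice and from 0.354% to 0.457% in Fc standard diet mice. Between these groups Otc was level on average (494 and 501 CPM) and Asl lower (464 and 401 CPM), so the sum does not describe each member. How often sums of other genes separate the diets was not tested. Per unit of transcript length, as TPM, Cps1 was at 834 ± 210 TPM in the Fc HFD mice (SD, n = 10) and Cyp2f2 at 719 ± 190 TPM. Cyp2f2 was below Cps1 in only 6 of these 10 mice, so that pair did not differ beyond the spread, and Asl followed at 574 ± 165 TPM. After the standard diet, Cps1 (1432 ± 117 TPM) and Cyp2f2 (1407 ± 131.3 TPM) in Fc mice (n = 9) overlapped in range, and both lay above every value of Asl (502 ± 38.5 TPM). In that group Asl was above Otc (424 ± 31.1 TPM) in 9 of 9 mice, although their ranges overlapped. The ranges of Sds, Hal and Gls2 (334 ± 59.0, 262 ± 37.5 and 261 ± 18.2 TPM) overlapped too. Of the genes described here other than Ass1, Cdh1 was the lowest in every group, between 26.4 and 40.9 TPM on average.

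To see how the Met agonist altered these genes once the high-fat feeding had ended, Fc(mML1)B3 was compared with Fc under the standard diet. Of the 8 members tested here, 7 were called, 5 higher and 2 lower, against 16.1% of all 13570 genes tested (8.56% higher and 7.55% lower). Asl and Cps1 of the urea cycle rose, as did Sds, Gls2 and Cyp2f2, while Hal and Cdh1 fell. The median log2 fold change of the 8 was 0.21, against -0.01 over all genes.

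Asl, which splits argininosuccinate into arginine and fumarate (chr5:130011503-130024331, minus strand), had the largest change. It ranged from 356 to 456 CPM (median 389.9) in the 9 Fc mice and from 508 to 811 CPM (median 609) in the 7 Fc(mML1)B3 mice. The groups did not overlap, which was so for 2.93% of all genes, and the mean was 1.54-fold higher (log2 0.62, SE 0.08, adjusted p = 2.77e-05). In the exact 2-sided permutation test over mice, p was 0.000175, the smallest that test could give. Cps1, which fixes ammonia at the entry of the cycle (chr1:67123027-67231267), ranged from 3702 to 4655 CPM (median 4117) in Fc mice and from 4268 to 5355 CPM (median 4789) in Fc(mML1)B3 mice. It was 1.14-fold higher (log2 0.19, SE 0.06, adjusted p = 0.0313), with 5 of 7 treated mice above all Fc mice. Otc, which makes citrulline (chrX:10252359-10321024), ranged from 448 to 575 CPM (median 507) with Fc and from 471 to 594 CPM (median 522) with Fc(mML1)B3. The groups overlapped almost fully and Otc was not called (log2 0.06, SE 0.06, adjusted p = 0.531).

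**Figure D1:**
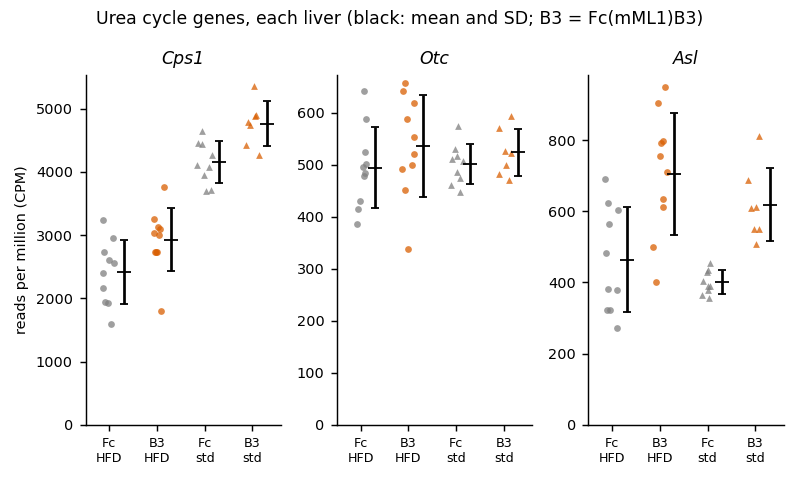
Levels of Cps1, Otc and Asl in each liver, as CPM (linear axis from 0), by group (std, standard diet). Points are mice (10, 10, 9 and 7) and black marks are the mean and SD: Asl separates the proteins under the standard diet, Cps1 separates the diets within each protein, and Otc does neither.

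Among the periportal members, Sds, which makes pyruvate and ammonia from serine (chr5:120476547-120483905), ranged from 154 to 255 CPM (median 219.6) in Fc mice and from 232 to 315 CPM (median 271) in Fc(mML1)B3 mice. It was 1.34-fold higher (log2 0.42, SE 0.10, adjusted p = 0.00866), and 5 of 7 treated mice lay above all Fc mice. Gls2, which frees ammonia from glutamine in periportal mitochondria (chr10:128194635-128210004), ranged from 301 to 389 CPM (median 337) and from 356 to 489 CPM (median 419), and was 1.21-fold higher (log2 0.28, SE 0.06, adjusted p = 0.00574). Cyp2f2 (chr7:27119955-27133660) ranged from 1123 to 1549 CPM (median 1315) and from 1417 to 1759 CPM (median 1536), and was 1.17-fold higher (log2 0.23, SE 0.07, adjusted p = 0.0213). Both were above the Fc median in 7 of 7 treated mice, with overlapping ranges. Hal (chr10:93488768-93516743) went the other way, from 275 to 448 CPM (median 398) in Fc mice to 237 to 325 CPM (median 275) in Fc(mML1)B3 mice. All 7 treated mice lay below the Fc median and 3 below every Fc mouse (log2 -0.47, SE 0.09, adjusted p = 0.00182). Cdh1 (chr8:106603368-106670246) ranged from 81.2 to 109 CPM (median 92.5) with Fc and from 67.1 to 81.9 CPM (median 73.4) with Fc(mML1)B3, so 6 of 7 treated mice were below every Fc mouse (log2 -0.36, SE 0.07, adjusted p = 0.00114). Cholangiocytes, the bile duct cells, also make Cdh1. The summed level of their 6 markers ranged from 228 to 500 CPM with Fc and from 178 to 411 CPM with Fc(mML1)B3, 1 of the 6 was called lower, none was at 0, and their part in the fall of Cdh1 was not tested.

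The file headers number the libraries of Fc mice 6 to 9 in 1 series with those of all Fc(mML1)B3 mice, and the libraries of Fc mice 1 to 5 in another. With Fc mice 6 to 9 alone as controls, 4 of the 8 members were called, 3 higher and 1 lower, against 6.86% of the 13735 genes tested in that fit. Asl kept its value (log2 0.64, adjusted p = 0.00314), while Hal (log2 -0.29, adjusted p = 0.114), Cyp2f2 (log2 0.27, adjusted p = 0.0562) and Cps1 (log2 0.23, adjusted p = 0.0685) were not called. The call on Cps1 was also lost in 7 of the 16 fits that left out 1 mouse (adjusted p from 0.0228 to 0.0757).

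**Figure D2:**
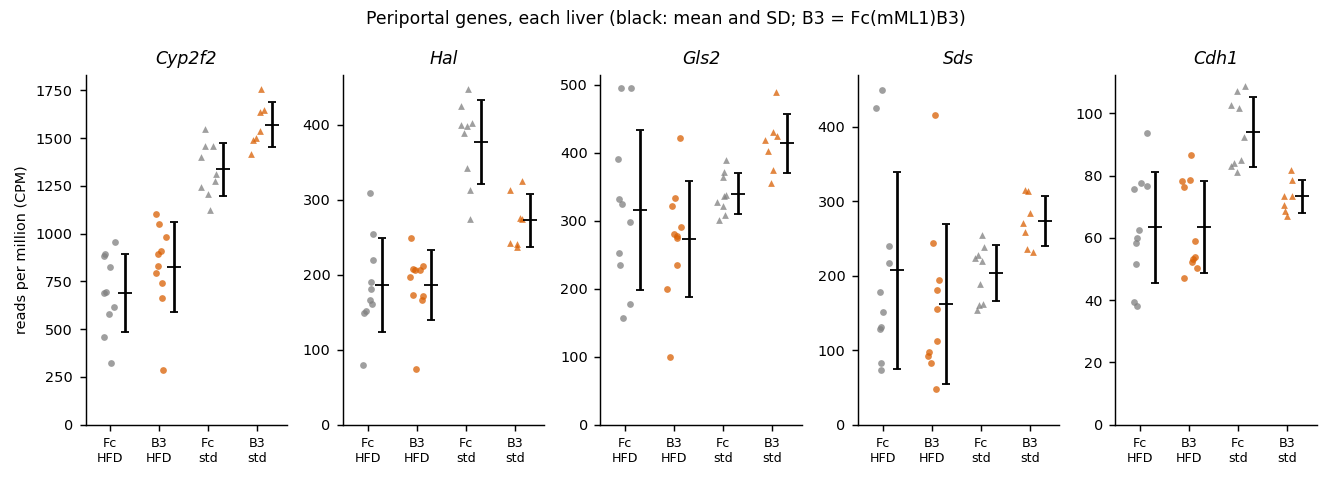
Levels of the 5 periportal genes in each liver, as CPM (linear axis from 0), by group (std, standard diet). Points are mice and black marks are the mean and SD: under the standard diet the Fc(mML1)B3 mice were higher in Cyp2f2, Gls2 and Sds and lower in Hal and Cdh1, and the HFD groups spread widely.

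The same comparison was made in mice that stayed on high fat. Under the HFD, 1 of the 8 members was called, against 14.8% of all 13299 genes tested (8.14% higher and 6.68% lower). Asl ranged from 272 to 690 CPM (median 431) in the 10 Fc mice and from 402 to 951 CPM (median 732) in the 10 Fc(mML1)B3 mice. The groups overlapped, 6 of 10 treated mice lay above every Fc mouse, and the fitted fold change was 1.54 (log2 0.62, SE 0.18, adjusted p = 0.0201; permutation test over mice, p = 0.00589). The headers number Fc(mML1)B3 mice 1 to 4 and 5 to 10 separately. Against all Fc mice, Asl was called with mice 1 to 4 (log2 0.82, adjusted p = 0.0322; 5.1% of all genes were called in that fit) and not with mice 5 to 10 (log2 0.47, adjusted p = 0.152; 12.6% of all genes). The call on Asl was thus lost without mice 1 to 4. Each subset holds fewer mice, and the difference between the 2 values was not tested. Cps1 ranged from 1596 to 3233 CPM (median 2479) with Fc and from 1802 to 3767 CPM (median 3017) with Fc(mML1)B3. It was above the Fc median in 9 of 10 treated mice and not called (log2 0.30, SE 0.13, adjusted p = 0.117). Fc(mML1)B3 mouse 5 had the lowest Cps1 of its group, and without it Cps1 was called (adjusted p = 0.0301). Without that mouse and Fc mouse 4, a choice made after seeing the data, 2 members were called, Asl and Cps1 (log2 0.30, adjusted p = 0.0498), against 17.1% of all genes tested in that fit.

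The other 6 members were not called under the HFD. Cyp2f2 (log2 0.27, SE 0.20) and Otc (log2 0.13, SE 0.11) were higher on average. Hal was at 186.3 ± 63.2 and 186.4 ± 46.2 CPM (SD, n = 10 each), and Cdh1 at 63.4 ± 17.8 and 63.5 ± 14.7 CPM. Gls2 and Sds were lower on average (log2 -0.19, SE 0.22, and log2 -0.34, SE 0.36). Against all Fc mice, both were higher with Fc(mML1)B3 mice 1 to 4 alone (log2 0.04 and 0.32). Both were lower with mice 5 to 10 (log2 -0.36 and -1.02), and neither was called in either fit. Relative to its mean, Sds spread most, from 73.1 to 449.8 CPM (median 164.4) with Fc and from 47.3 to 415 CPM (median 133.7) with Fc(mML1)B3. Fc mice 7 and 8 held the 2 highest levels of Sds, Gls2, Hal and Cdh1 in their group. The same 2 mice had summed neutrophil markers of 54.3 and 47.4 CPM, against a group median of 11.1, and the part of this in the result was not tested.

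**Figure D3:**
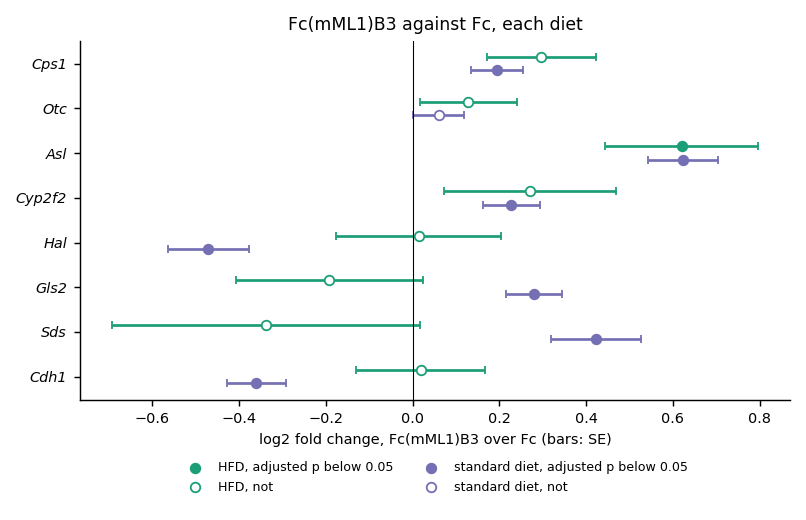
Log2 fold change of Fc(mML1)B3 over Fc for 8 members under each diet, with bars of 1 SE; filled points passed an adjusted p of 0.05. Asl lies at 0.62 under both diets, and the SEs under the HFD are wider for each of the 8.

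The responses to the protein in the 2 experiments were compared by an interaction term fitted to all 36 libraries. None of the 8 members was called, against 9.06% of 14105 genes (4.66% higher and 4.4% lower under the standard diet). An unadjusted p below 0.05 was reached by 0 members in edgeR, by 2 in DESeq2 (Cdh1 and Hal) and by 0 in limma-voom. The effect on Asl differed by 0.02 on the log2 scale (SE 0.22). The largest differences were those of Sds (0.78, SE 0.43), Gls2 (0.49, SE 0.26), Hal (-0.47, SE 0.24) and Cdh1 (-0.36, SE 0.19), with adjusted p from 0.260 to 0.299. The HFD effects on Sds, Gls2 and Cdh1 differed in sign between Fc(mML1)B3 mice 1 to 4 and mice 5 to 10. They were log2 0.32 and -1.02 for Sds, 0.04 and -0.36 for Gls2, and -0.28 and 0.20 for Cdh1. That on Hal was 0.02 and 0.01. In this fit the spread of each gene was estimated over all 36 libraries together. The differences in response of Sds, Gls2, Hal and Cdh1 could not be told from that spread.

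The livers of the 2 experiments were next set side by side within each protein. Diet goes together with the experiment, the dosing days, the length of treatment and the library numbering, and these cannot be told apart. In the Fc mice, 4 of 8 members were called, all higher after the standard diet, against 49% of all 13506 genes (23.9% higher and 25.2% lower). In the Fc(mML1)B3 mice, 4 of 8 were called, all higher, against 38.2% of 13627 genes (19.1% in each direction). Counted in both directions, the members' shares were near the background. The 2 diet comparisons have no mice in common, and each uses mice of the protein comparisons above.

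Cyp2f2, Cps1 and Hal were called in both. Cyp2f2 was at 691 ± 204 CPM in Fc HFD mice (n = 10) and at 1337 ± 138 CPM in Fc standard diet mice (n = 9), a 1.93-fold difference (log2 0.95, SE 0.15, adjusted p = 2.76e-05). With Fc(mML1)B3 it was at 826 ± 234 and 1570 ± 117 CPM (log2 0.91, SE 0.17, adjusted p = 0.000312). Cps1 was at 2409 ± 506 and 4154 ± 330 CPM with Fc (log2 0.78, SE 0.11, adjusted p = 5.38e-06) and at 2929 ± 503 and 4765 ± 352 CPM with Fc(mML1)B3 (log2 0.68, SE 0.11, adjusted p = 4.01e-05). The diets did not overlap in Cyp2f2 or Cps1 within either protein, as in 9.81% of all genes with Fc and 10.2% with Fc(mML1)B3. Hal was at 186.3 ± 63.2 and 377 ± 55.9 CPM with Fc, 2.02-fold higher (log2 1.01, SE 0.17, adjusted p = 3.68e-05), and at 186.4 ± 46.2 and 273 ± 35.4 CPM with Fc(mML1)B3 (log2 0.53, SE 0.15, adjusted p = 0.00887).

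Cdh1 was called between the diets in the Fc mice (63.4 ± 17.8 and 94.0 ± 11.1 CPM, log2 0.57, SE 0.13, adjusted p = 0.00120), and was at 63.5 ± 14.7 and 73.4 ± 5.29 CPM in the Fc(mML1)B3 mice (log2 0.19, SE 0.11, adjusted p = 0.192). Of the 6 cholangiocyte markers, 3 were called lower after the standard diet in Fc mice and 0 higher, against 25.2% of all genes lower, and their part in the difference in Cdh1 was not tested. Gls2 was called in the Fc(mML1)B3 mice (273 ± 85.1 and 414 ± 43.1 CPM, log2 0.58, SE 0.18, adjusted p = 0.0133) and not in the Fc mice (log2 0.10, SE 0.17). Sds narrowly missed in the Fc(mML1)B3 mice (162 ± 107 and 273 ± 33.8 CPM, log2 0.73, SE 0.29, adjusted p = 0.0549). It was called there by limma-voom (log2 0.98, adjusted p = 0.0154), without TMM (log2 0.76, adjusted p = 0.0363), and without mouse 1 or mouse 2 of the HFD group. Otc and Asl were not called: with Fc, the log2 differences were 0.02 for Otc (SE 0.09) and -0.21 for Asl (SE 0.15), and with Fc(mML1)B3 they were -0.05 (SE 0.11) and -0.21 (SE 0.15). Of Cps1, Otc and Asl, only Cps1 was thus called between the diets, and only Asl between the proteins under both diets.

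Markers of other cells were examined beside these diet differences, and their counts stand against 25.2% of all genes lower after the standard diet with Fc and 19.1% with Fc(mML1)B3. In Fc mice, 4 of 7 macrophage, 3 of 5 stellate cell and 4 of 4 T and B cell markers were called lower after the standard diet. The summed macrophage markers ranged from 935 to 2093 CPM in Fc HFD mice and from 714 to 1256 CPM in Fc standard diet mice, and the stellate cell markers from 626 to 1125 and from 485 to 729 CPM. Of the 4 hepatocyte markers tested, 1 was called higher, and their sum ranged from 75445 to 133053 CPM and from 102608 to 133246 CPM. Of the endothelial markers, 0 of 4 were called, and of the neutrophil markers 1 of 3 was lower. In Fc(mML1)B3 mice, 2 of 6 cholangiocyte, 3 of 7 macrophage and 3 of 5 stellate cell markers were lower after the standard diet. Of the T and B cell markers 0 of 4 were called there, while 1 of 4 endothelial markers was lower, 1 of 4 hepatocyte markers higher, and of 3 neutrophil markers 1 was higher and 1 lower. Of the 2 small intestine markers tested, Fabp2 was lower after the standard diet with both proteins (log2 -0.56, SE 0.12, and log2 -0.54, SE 0.11). Between the proteins fewer were called, all lower with Fc(mML1)B3: 2 of 3 neutrophil and 1 of 4 T and B cell markers under the HFD, and 1 each of the cholangiocyte, macrophage and stellate cell markers under the standard diet. The part of these in the higher Cyp2f2, Cps1, Hal and Cdh1 was not tested.

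**Figure D4:**
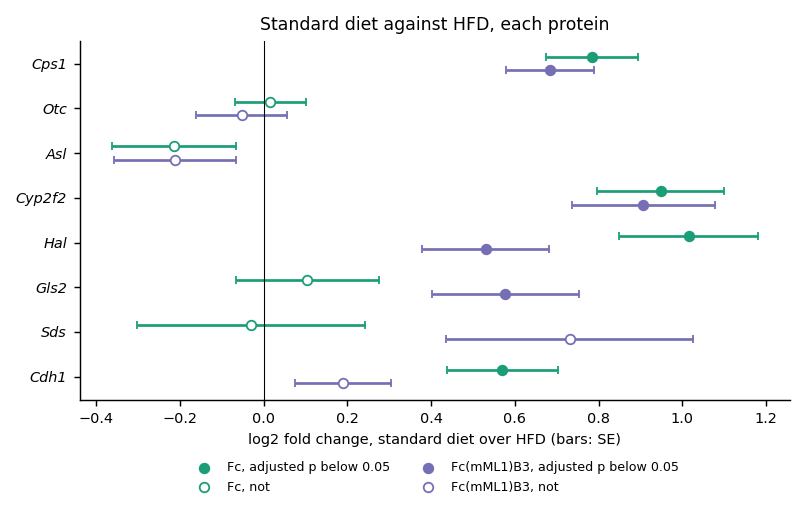
Log2 fold change of the standard diet over the HFD for 8 members within each protein, with bars of 1 SE; filled points passed an adjusted p of 0.05. Cyp2f2, Cps1 and Hal lie above 0.5 with both proteins, and Otc and Asl lie between -0.25 and 0.05.

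Hal starts the breakdown of histidine, which Uroc1, Amdhd1 and Ftcd complete. The 4 enzymes were set side by side, of which Uroc1 and Ftcd were chosen after their values were seen. Under the HFD none of the 4 was called with Fc(mML1)B3 (Amdhd1 log2 -0.25, Uroc1 0.14, Ftcd 0.12). In Fc mice all 4 were higher after the standard diet than on the HFD, as were 23.9% of all genes. Beside Hal, Uroc1 rose from 429 ± 69.9 to 578 ± 54.1 CPM (log2 0.43, SE 0.09, adjusted p = 0.000679), Amdhd1 from 150.1 ± 28.3 to 197 ± 23.0 CPM (log2 0.39, SE 0.10, adjusted p = 0.00328) and Ftcd from 262 ± 53.8 to 361 ± 30.9 CPM (log2 0.46, SE 0.11, adjusted p = 0.00160). With Fc(mML1)B3 under the standard diet, Hal and Amdhd1 fell, Amdhd1 to 140.8 ± 18.3 CPM (log2 -0.49, SE 0.08, adjusted p = 0.000383), whereas Uroc1 (log2 0.10, SE 0.07) and Ftcd (log2 0.02, SE 0.06) were not called. With Fc mice 6 to 9 alone as controls, the fall of Hal was smaller and not called (log2 -0.29, adjusted p = 0.114). The value of Amdhd1 in that fit is not given here. The 2 genes that fell are neighbours: Amdhd1 (chr10:93523338-93540033, minus strand) and Hal (plus strand) point towards each other with 6594 bases and 0 annotated genes between them. Reads were counted without strand, and their exons do not overlap.

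**Figure D5:**
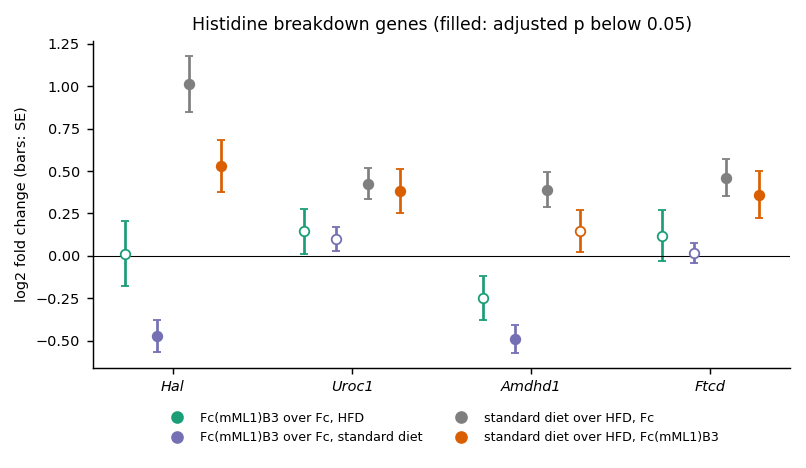
Log2 fold change of the 4 histidine breakdown genes in the 4 comparisons, with bars of 1 SE; filled points passed an adjusted p of 0.05. All 4 genes lie above 0 between the diets in Fc mice, and Hal and Amdhd1 lie near -0.5 with Fc(mML1)B3 under the standard diet.

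The 250 bases before the RefSeq starts (GRCm38.p6) are shown for Hal and Amdhd1, both called lower with Fc(mML1)B3 under the standard diet when all Fc mice were used. They are also shown for Cyp2f2, which rose with Hal between the diets, and for Otc, which was called in no comparison. Of the 9 members described, 4 are in the promoter table, Ass1, Cyp2f2, Hal and Otc, and Amdhd1 is there too. Capitals mark matches, on either strand, to the motifs listed after the sequences.
Hal (chr10:93488518-93488767, plus strand): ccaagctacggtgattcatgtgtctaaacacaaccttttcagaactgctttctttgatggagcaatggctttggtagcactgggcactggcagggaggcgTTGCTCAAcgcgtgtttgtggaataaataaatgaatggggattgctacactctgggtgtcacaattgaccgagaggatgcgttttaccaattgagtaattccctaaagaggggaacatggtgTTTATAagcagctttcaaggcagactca
Amdhd1 (chr10:93540034-93540283, minus strand): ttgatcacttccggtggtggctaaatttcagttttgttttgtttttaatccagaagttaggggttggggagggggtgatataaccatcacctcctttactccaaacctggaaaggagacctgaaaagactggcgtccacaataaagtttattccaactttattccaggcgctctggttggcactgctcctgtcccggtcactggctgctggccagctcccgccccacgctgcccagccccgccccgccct
Cyp2f2 (chr7:27119705-27119954, plus strand): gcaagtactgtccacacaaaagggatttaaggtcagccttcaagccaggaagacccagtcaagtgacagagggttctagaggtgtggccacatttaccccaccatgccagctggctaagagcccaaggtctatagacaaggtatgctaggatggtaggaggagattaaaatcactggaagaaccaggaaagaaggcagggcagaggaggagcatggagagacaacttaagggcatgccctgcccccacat
Otc (chrX:10252055-10252304, plus strand): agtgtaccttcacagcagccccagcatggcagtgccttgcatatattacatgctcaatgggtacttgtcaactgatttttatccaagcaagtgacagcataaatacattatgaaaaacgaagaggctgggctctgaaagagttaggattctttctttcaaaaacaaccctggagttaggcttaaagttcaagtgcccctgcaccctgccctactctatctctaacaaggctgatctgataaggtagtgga
The motifs searched were the cAMP response element TGACGTCA, which 1.55% of the 32851 promoters of the table hold, the C/EBP motif TTGCNNAA (9.56%), the HNF4 motif CAAAGTCCA (0.384%) and the D-box TTATGTAA (0.819%). The letters TGTTCT of the glucocorticoid receptor half-site are in 16.1% of the promoters. A forkhead motif, TGTTTAC, is in 3.17% of them. The E-box CACGTG is in 6.02%. The TATA box, searched as TATAAA, is in 12.4%. None of the matches shown overlap. Hal held a C/EBP match starting 150 bases before the start and the reverse complement of the TATA box letters starting 28 bases before it. Amdhd1, Cyp2f2 and Otc held none of these letters in this window, and Ass1 held an E-box. These are matches of letters only.

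Genes that feed the urea cycle were compared next. In all lists that follow, the share of all genes called was 14.8% for Fc(mML1)B3 under the HFD, 16.1% under the standard diet, and 49% and 38.2% between the diets with Fc and Fc(mML1)B3. Of 12 tested partners (synthesis of the Cps1 cofactor, carriers and mitochondrial feed), 6 were higher with Fc(mML1)B3 under the standard diet and 0 lower. Gpt2, an alanine transaminase, rose from 442 ± 38.9 to 632 ± 89.7 CPM (log2 0.51, SE 0.08, adjusted p = 9.89e-05). Gpt, the cytosolic form, rose by log2 0.34 (SE 0.06), and Slc25a13, the aspartate-glutamate carrier that supplies the Ass1 step, by log2 0.31 (SE 0.06). Under the HFD, 3 of 12 were higher, Nags, which makes the activator of Cps1 (log2 0.32, SE 0.08), Slc25a15, the mitochondrial ornithine carrier (log2 0.36, SE 0.10), and Glud1, the glutamate dehydrogenase (log2 0.28, SE 0.08), and 1 was lower, the urea and glycerol channel Aqp9 (log2 -0.36, SE 0.10). Between the diets, 3 were higher and 4 lower after the standard diet in Fc mice, with the mitochondrial glutamate carrier Slc25a22 (log2 0.53) and Gpt (log2 -0.28) having the smallest p in each direction. These 7 of 12 stand against 49% of all genes. In Fc(mML1)B3 mice 1 was higher, Aqp9, and 1 lower, Got2, the mitochondrial aspartate transaminase (log2 -0.46, SE 0.09).

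The 15 tested neighbours of Hal, Gls2 and Sds in histidine, glutamine and serine metabolism gave 0 higher and 2 lower under the HFD, both amino acid carriers, Slc38a3 (1641 ± 292 to 994 ± 291 CPM, log2 -0.71, SE 0.15, adjusted p = 0.00206) and Slc38a4 (log2 -0.56, SE 0.10). Under the standard diet 2 were higher, Shmt1 (log2 0.29) and Slc38a3 (log2 0.24, SE 0.07), and 1 was lower, Amdhd1. Between the diets, 5 were higher and 4 lower within each protein. Slc38a2, a glutamine carrier, was higher with both (log2 0.64 with Fc and 0.69 with Fc(mML1)B3). The serine synthesis genes Psat1 (log2 -1.01, SE 0.23) and Phgdh (log2 -0.96, SE 0.27) were lower in Fc mice, though both were at or under 3.20 CPM on average.

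Of 24 other genes of hepatic amino acid breakdown, 5 were higher and 0 lower with Fc(mML1)B3 under the HFD, and 9 were higher and 5 lower under the standard diet. Gldc, of the glycine cleavage system, rose under the HFD from 49.6 ± 17.1 to 119.5 ± 37.0 CPM (log2 1.29, SE 0.21, adjusted p = 0.000256) and fell under the standard diet from 125 ± 16.4 to 90.1 ± 16.0 CPM (log2 -0.48, SE 0.10, adjusted p = 0.00277). Ahcy, which splits S-adenosylhomocysteine, rose under both (log2 0.59, SE 0.11, and 0.50, SE 0.06). Prodh, which oxidizes proline, rose under the standard diet (log2 0.73, SE 0.09), while Cbs, of the transsulfuration pathway (log2 -0.56, SE 0.07), and Amt, the glycine cleavage partner of Gldc (log2 -0.51, SE 0.07), fell. Between the diets, 6 were higher and 4 lower in Fc mice, 10 of 24 against 49% of all genes, a share below the background. Among them were Cbs (log2 0.80, SE 0.08) and Gldc (log2 1.34, SE 0.16) upward and Bckdhb (log2 -0.39, SE 0.08) and Prodh (log2 -0.66, SE 0.14) downward. In Fc(mML1)B3 mice 2 were higher and 2 lower, 4 of 24 against 38.2% of all genes.

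Other zonated genes gave mixed directions. Of 10 other periportal genes, 0 were called under the HFD. Under the standard diet 2 were higher with Fc(mML1)B3 (Fbp1, of glucose synthesis, log2 0.33, SE 0.06, and Apoa4, log2 0.38, SE 0.10) and 1 was lower (Igfbp1, from 32.7 ± 16.98 to 11.6 ± 6.62 CPM, log2 -1.499, SE 0.33). Between the diets in Fc mice, 3 were higher (Etnppl, Sult5a1 and Pck1, the gatekeeper of glucose synthesis, log2 0.58, SE 0.21) and 2 lower (Apoa4, log2 -2.58, SE 0.37, and Fbp1, log2 -0.57, SE 0.11), and in Fc(mML1)B3 mice 2 were higher and 3 lower. Of 12 pericentral genes, the opposite zone, 1 was higher with Fc(mML1)B3 under the HFD (Rhbg, an ammonium carrier, log2 0.44, SE 0.14). Under the standard diet 4 were higher, among them Rhbg (log2 0.44, SE 0.08) and Cyp2e1 (6252 ± 592 to 7437 ± 644 CPM, log2 0.25, SE 0.07), and 1 was lower (Lgr5, log2 -0.40, SE 0.13). The median log2 fold change under the standard diet was 0.21 for the 8 members and 0.23 for the 12 pericentral genes, and the difference between the lists was not tested. Between the diets, 1 pericentral gene was higher and 4 lower in Fc mice, and 0 were higher and 6 lower in Fc(mML1)B3 mice, among them Glul, the glutamine synthetase (1952 ± 772 to 1312 ± 203 CPM with Fc, log2 -0.58, SE 0.23, and log2 -0.49, SE 0.12, with Fc(mML1)B3).

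Among 12 regulators of these pathways, 3 were higher with Fc(mML1)B3 under the HFD (Atf4, of the amino acid response, log2 0.31, SE 0.08, Hnf4a, log2 0.37, SE 0.11, and Foxa2, log2 0.42, SE 0.14) and 1 under the standard diet (Foxo1, 36.04 ± 3.72 to 52.1 ± 5.31 CPM, log2 0.53, SE 0.07, adjusted p = 3.02e-05), with none lower. After the standard diet 7 were higher and 1 lower in Fc mice, among them Hnf4a (417 ± 51.5 to 636 ± 70.4 CPM, log2 0.61, SE 0.08) and Cebpa (log2 0.40, SE 0.08), and 5 were higher and 1 lower in Fc(mML1)B3 mice. Of the 7 partners of Cdh1 in cell adhesion, 0 were called under the HFD and 1, Ctnnd1, in the standard diet mice, which fell with Cdh1 (log2 -0.17, SE 0.05, adjusted p = 0.0451). In Fc mice 2 were higher after the standard diet, Ctnnd1 (log2 0.49, SE 0.09) and Ctnnb1 (log2 0.21, SE 0.06), and 1 was lower, Epcam, which also marks bile duct cells (log2 -1.03, SE 0.30). In Fc(mML1)B3 mice Ctnnd1 was the 1 higher.

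Variation between mice within the groups was also compared between these genes, over all groups pooled. HFD livers spread more (SD of Gls2 118 and 85.1 CPM with Fc and Fc(mML1)B3, against 29.7 and 43.1 CPM under the standard diet). They thus weigh more in the pooled values, and none was computed within 1 group. Each library's deviation from its own group mean of log2(CPM + 1) was compared between genes over the 36 libraries, which share depth and RNA quality within a library, as a description. Of the members described, Gls2 was nearest to Cyp2f2 (Pearson r = 0.92), Asl (0.88), Sds (0.86) and Hal (0.86), while to Otc it was Cyp2f2 (0.84) and to Cps1 it was Hal (0.72). Cdh1 stood apart, with its highest value to another of these genes at 0.05 (Cps1) and its lowest at -0.55 (Otc). Among all other genes kept, those most like Cps1 were Gldc (0.88), the mitochondrial elongation factor Gfm1 (0.86), the ornithine carrier Slc25a15 (0.86), the fatty acid elongase Elovl2 (0.83) and the mitochondrial chaperone Hspa9 (0.83). Without Fc(mML1)B3 mouse 5 of the HFD group, these 5 values ranged from 0.75 to 0.83. The values between members were not recomputed without that mouse, and no background over other pairs of genes is given.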

How the data were processed

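Liver RNA of 36 mice was sequenced (1 library per mouse, MGIEasy directional kit). Before deposit, the authors trimmed the reads with fastp, removed ribosomal RNA with Bowtie2 2.4.5, aligned to mm10 with STAR 2.7.10a and counted with featureCounts of Subread 2.0.3, without strand and with each end of a pair counted. The deposited values are these counts, unnormalized. The labels number the livers within each group, up to the number of mice that the study gives for it. No pair of libraries within a group agreed within sampling noise.

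From the counts, edgeR 4.0.16 (R 4.3.3; TMM, filterByExpr, quasi-likelihood F-test, Benjamini-Hochberg over all genes tested) was run for 5 comparisons. The SE of a fold change on the log2 scale was its absolute value over the root of F. CPM per mouse used TMM over all 36 libraries, and TPM the lengths in the files. Permutation tests used the mean log2(CPM + 1), 2-sided, exact for the standard diet and with 100000 resamples for the HFD. The fits were tested on simulated data. Alternatives were DESeq2 1.42.0, limma-voom 3.58.1, other scalings, filters and thresholds, a replicate block, library series and each mouse left out. The members and lists were chosen with earlier results of these data known. Of the 10 members 1 is not reported here, nor is 1 gene of the lists, and counts and sums leave both out. The other 9 members are named, as are up to 3 called genes per direction, list and comparison with the smallest p, and Uroc1 and Ftcd, chosen after their values were seen. Of the mouse numbers shared between groups, none was stated to mark a litter, batch or day.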

Additional observations from a re-analysis of the deposited data

Results flagged for a closer look

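Of the 32 sets of mice checked (8 tested members in 4 groups), 3 held 1 mouse far from the rest of its group, and chance alone flags about 1 of 20 sets. The sets share mice, and 2 of the 3 come from the same mouse. Under the HFD with Fc(mML1)B3, mouse 5 had 74.5 CPM of Hal against 165.9 for the next lowest mouse, and 1802 CPM of Cps1 against 2728. In the same group, mouse 2 had 415 CPM of Sds against 243 for the next highest.

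Of 100 tested list genes, 11 differed between the experiments in their response to Fc(mML1)B3 by the interaction term (standard diet effect minus HFD effect, log2), and none of the 8 members did. The same term was called for 9.06% of all 14105 genes, so the count is near the background. The 100 genes leave out the clock genes and the lists of cell markers, though Epcam, a cholangiocyte marker, is among them as a partner of Cdh1. Of the 10 clock genes all differed, 6 upward and 4 downward (Dbp by 3.46, adjusted p = 4.86e-08, and Arntl by -5.02, adjusted p = 1.48e-10), as did 2 of 4 T and B cell markers. The difference was -1.75 for Gldc (adjusted p = 1.95e-05), with effects of 1.29 (HFD) and -0.48 (standard diet). It was 0.97 for Slc38a3 (adjusted p = 0.000216; effects -0.71 and 0.24) and 0.56 for Slc38a4 (adjusted p = 0.00248; effects -0.56 and -0.02). It was -1.96 for Igfbp1 (adjusted p = 0.0106; effects 0.47 and -1.499), 0.56 for Foxo1 (adjusted p = 0.0107; effects -0.01 and 0.53) and -0.53 for Amt (adjusted p = 0.0113; effects 0.04 and -0.51). It was -0.57 for Psph (adjusted p = 0.0132), -0.48 for Cdo1 (adjusted p = 0.0191), 0.39 for Aqp9 (adjusted p = 0.0259), -0.44 for Hnf4a (adjusted p = 0.0370) and 1.30 for Apoa4 (adjusted p = 0.0414). Diet, dosing days and experiment cannot be told apart in these values.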

How the results depend on the processing

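Over all alternatives, none of the 8 tested members reversed a call. The number of members called with Fc(mML1)B3 under the HFD was 1, and it was 0 with Fc(mML1)B3 mice 5 to 10 alone, 0 when a fold above 2 at an adjusted p under 0.1 was required, 2 without Fc mouse 4 and Fc(mML1)B3 mouse 5 (chosen after seeing the data, with 17.1% of all genes called), and 1 to 2 with 1 mouse left out, the 2 without Fc(mML1)B3 mouse 5. Under the standard diet it was 7, and it was 4 with Fc mice 6 to 9 alone, 0 at the limit of fold 2, 1 with folds limited to those above 1.5 (Asl), and 6 to 7 with 1 mouse left out. Between the diets it was 4 within each protein. With the limit of fold 2 it was 1 with Fc (Hal) and 0 with Fc(mML1)B3. With the limit of fold 1.5 it was 2 with Fc(mML1)B3, and with Fc the call on Cdh1 was lost (fold 1.49). With 1 mouse left out it was 4 throughout with Fc and 4 to 5 with Fc(mML1)B3. Without TMM, Cps1 under the standard diet was not called (log2 0.16, adjusted p = 0.0536), and DESeq2 changed no call.

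Mice of different groups with the same number did not deviate together (r from -0.19 to -0.01 over the 7 numbers shared under the standard diet, 0 of 7 best with their own number, and from -0.67 to 0.36 over 10 under the HFD). With the number as a replicate block, 4 members were called under the standard diet (9.66% of all genes), without Cps1 (log2 0.21), Cyp2f2 (log2 0.26) and Gls2 (log2 0.28), and Cdh1 was called between the diets with Fc(mML1)B3 (log2 0.30). Depth limited none of the 8 tested members, each with at least 690 reads in every library.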
